A study of Bos taurus with 8 samples.

Results

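The genes of the switch that drives a cell into mitosis were followed in bovine 2-cell embryos collected at 29.5 or 46 hours post-fertilization (hpf). They were CDK1, the cyclins CCNA2, CCNB1 and CCNB2, the activating phosphatases CDC25A, CDC25B and CDC25C, and the inhibitory kinases WEE1, WEE2 and PKMYT1. Every array probe whose platform annotation carries 1 of these 10 symbols was taken. This gave 15 probes of the 43794 on the array, and 10 of the 15212 genes with a symbol. Of them, 14 probes of 9 genes passed the filter on dim signal and were tested.

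CDK1 is a protein kinase that is active only when bound to a cyclin, and its activity starts mitosis and the meiotic divisions of the oocyte. WEE1, its oocyte form WEE2 and PKMYT1 hold the CDK1-cyclin complex inactive by phosphorylating CDK1, and the CDC25 phosphatases remove these phosphates. Active CDK1 turns on CDC25 and turns off WEE1, which makes entry into mitosis abrupt. In early embryos much of this control acts on proteins and on the translation of stored maternal transcripts, so a transcript level is not a measure of kinase activity.

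The embryos came from oocytes of slaughterhouse Holstein cows that were matured in vitro, fertilized with mixed frozen semen of several bulls and freed of cumulus cells mechanically after fertilization. The labels call the 29.5 hpf embryos fast and the 46 hpf embryos slow, and all were 2-cell embryos. No genotype or treatment distinguished the groups, and the donors' age, the number of embryos in each sample and the phase of the cell cycle at collection are not given in the sources used here. Each of 8 two-colour EmbryoGENE oligonucleotide arrays carried amplified RNA of a 29.5 hpf and a 46 hpf sample, with the 29.5 hpf RNA in Cy5 on 4 arrays and in Cy3 on 4. A log2 ratio is that of the 29.5 hpf signal to the 46 hpf signal, and it is negative where the early group gave less signal. The groups differed both in the time of collection and in how fast they had cleaved, and these cannot be told apart. In RNA of whole embryos, fewer cells or embryos carrying a transcript and less of it in each cannot be told apart, and a ratio within an array does not show a change in total RNA.

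The arrays are named 1a to 4a where the 29.5 hpf RNA was in Cy5 and 1b to 4b where it was in Cy3, with the replicate number of the labels. The series text describes 4 biological replicates, each with a dye swap, so arrays of the same number should hold the same extracts. Over all tested probes, the sign-turned log2 ratios of 1a and 1b correlated at 0.038 and those of 2a and 2b at 0.049, whereas 3a and 3b reached 0.618 and 4a and 4b 0.717. Arrays 1a and 2b correlated at 0.669, and 2a and 1b at 0.522. The labelled numbers 1 and 2 thus did not pair their arrays. Results are given with the labelled numbers, with 1b and 2b exchanged, and without replicates 1 and 2 for the genes that the results turn on. The precision is limited by the 4 replicates, and the p-values measure the spread between these replicates only. If the arrays pair as their values do, the labelled averages 1 and 2 each mix the same extracts. They are then not independent, and SDs, intervals and p-values with the labelled numbers can be too narrow. For CCNB2 the SD was 0.28 with the labelled numbers and 0.47 with the exchanged ones. The median raw signal was 152.1 to 343.8 in Cy5 and 128.5 to 195.7 in Cy3.

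CDK1 was the member with the lowest ratio. Its log2 ratio was -0.50 on array 1a, -0.14 on 2a, -1.21 on 3a and -1.10 on 4a, and -0.19 on 1b, -0.53 on 2b, -1.67 on 3b and -1.22 on 4b (probe EMBV3_18640). It was lower at 29.5 hpf on 8 of 8 arrays, and the arrays numbered 3 and 4 stood below those numbered 1 and 2 without overlap. The mean was -0.82 ± 0.57 (SD, n = 4 replicates), a 1.76-fold lower signal, with a 95% interval of -1.36 to -0.28. The adjusted p was 0.148 with limma's moderated test over 32989 probes, and 0.250 with the numbers exchanged, so it did not pass the threshold of 0.05. Of all tested probes, 0.312% had a mean as low as that of CDK1 or lower.

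The level of CDK1, as normalised log2 intensity per channel, was 9.27 to 10.49 with a median of 9.88 in the 8 channels of 29.5 hpf. At 46 hpf it was 10.20 to 11.31 with a median of 10.73. The groups overlapped across arrays, while within each array the 46 hpf channel was the brighter one. The spread of CDK1 lay between replicates rather than between dyes. Its mean was -0.74 on the arrays with 29.5 hpf in Cy5 and -0.90 on those with 46 hpf in Cy5, and -1.30 without replicates 1 and 2 (adjusted p = 0.313 with limma).

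For CDK1 the exchanged numbers paired the arrays closely. Arrays 1a and 2b differed by 0.030 and arrays 2a and 1b by 0.050 on the log2 scale, against 0.309 and 0.389 for the labelled pairs 1 and 2. Over the 14 tested member probes, the median absolute difference within a pair was 0.461 and 0.389 for the labelled pairs 1 and 2. It was 0.229 and 0.280 after the exchange, and 0.337 and 0.246 for pairs 3 and 4. The exchange was chosen from correlations over all tested probes, the member probes among them. These smaller differences are thus no separate support for it.

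**Figure D1:**
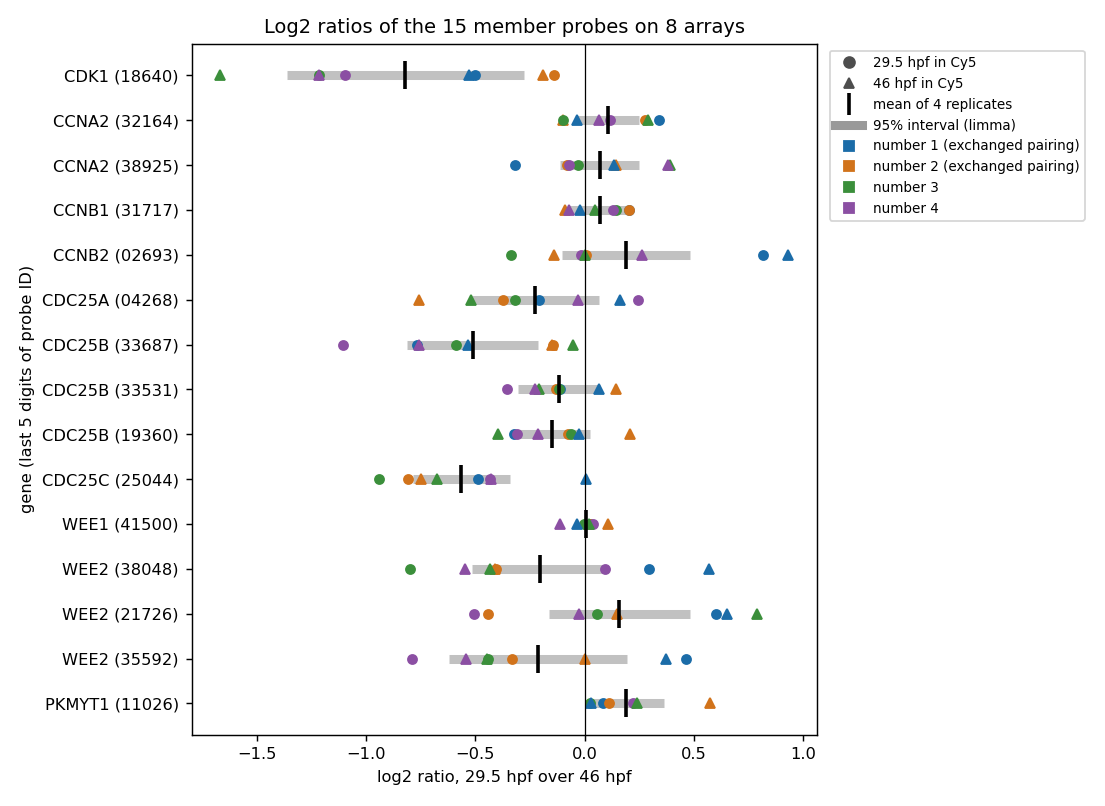
Log2 ratio of 29.5 hpf over 46 hpf (horizontal axis) for each of the 15 member probes on each array, with circles for 29.5 hpf in Cy5, triangles for 46 hpf in Cy5 and a colour for each extract pair after the exchange of numbers 1 and 2. The black bar is the mean of the 4 replicates and the grey bar its 95% interval, absent for the untested WEE1 probe; CDK1 and the brightest CDC25B probe lie below 0 on 8 of 8 arrays, and PKMYT1 above 0 on 7 of 7.

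Among the cyclins, CCNB1 and CCNA2 were the brightest members, and their ratios were near 0. CCNB1 encodes cyclin B1, the main partner of CDK1 at entry into mitosis (EMBV3_31717). Its log2 ratio was 0.20, 0.20, 0.14 and 0.13 on 1a to 4a, and -0.09, -0.02, 0.05 and -0.07 on 1b to 4b. The arrays of the dye orientations did not overlap, with means of 0.17 and -0.03, and the limma dye term for this probe had an adjusted p of 0.905. The mean of CCNB1 was 0.07 ± 0.03 (SD, n = 4), with an interval of -0.07 to 0.21 (limma adjusted p = 0.642). That interval holds for loess and the labelled numbers only. With median centring in place of loess the mean was -0.21, outside it. Its level was 15.11 to 15.25 at 29.5 hpf and 15.02 to 15.20 at 46 hpf. The brightest CCNB1 spot had a median pixel of 63156, close to the scanner's ceiling of 65535, and no member spot had its median pixel at the ceiling. How far the brightest pixels compressed the ratio of CCNB1 was not tested.

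CCNA2 encodes cyclin A2, which serves in S phase and early mitosis and has 2 probes on the array. The bright probe (EMBV3_32164) had log2 ratios of 0.34, 0.28, -0.10 and 0.12 on 1a to 4a and of -0.10, -0.04, 0.29 and 0.07 on 1b to 4b. It was higher at 29.5 hpf on 5 arrays and lower on 3. Its mean was 0.11 ± 0.016 (SD, n = 4), with an interval of -0.03 to 0.25 (limma adjusted p = 0.443), although arrays of 1 number differed by up to 0.44. The dim CCNA2 probe (EMBV3_38925) was above background on 4 of 8 arrays in each group, and its mean was 0.07 ± 0.12 (limma adjusted p = 0.717).

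CCNB2, another B-type cyclin, showed the widest split of the cyclins (EMBV3_02693). Its log2 ratio was 0.82 on 1a and 0.93 on 2b, the arrays that pair after the exchange. On the other 6 arrays it was between -0.34 and 0.26. CCNB2 was thus high in 1 extract pair and near 0 in the other 3. Its mean of 0.19 had an SD of 0.28 with the labelled numbers and of 0.47 with the exchanged ones (n = 4 each), with limma adjusted p of 0.517 and 0.763. Without replicates 1 and 2 the mean was -0.02.

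**Figure D2:**
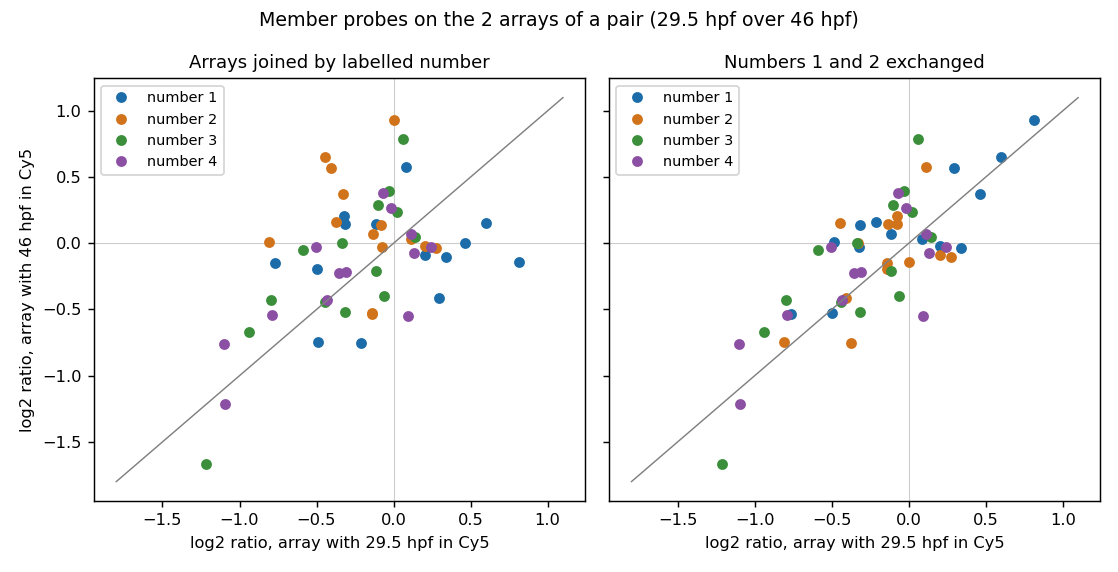
Log2 ratio of each tested member probe on the array with 46 hpf in Cy5 (vertical axis) against the array with 29.5 hpf in Cy5 (horizontal axis), for arrays joined by labelled number on the left and with numbers 1 and 2 exchanged on the right; the line marks equal values. The points of numbers 1 and 2 lie nearer to the line on the right, where their median absolute difference was 0.229 and 0.280, against 0.461 and 0.389 on the left.

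Of the CDC25 phosphatases, CDC25C and the brightest CDC25B probe had lower means at 29.5 hpf, and neither passed the threshold. CDC25C activates CDK1-cyclin B at entry into mitosis (EMBV3_25044). Its log2 ratio was -0.49, -0.81, -0.94 and -0.43 on 1a to 4a, and -0.75, 0.01, -0.67 and -0.43 on 1b to 4b. It was negative on 7 of 8 arrays, with 2b as the exception. The mean was -0.56 ± 0.19 (SD, n = 4), a 1.48-fold lower signal with an interval of -0.79 to -0.34. The limma adjusted p was 0.0601, the smallest of the members, and 0.175 with the numbers exchanged. Without replicates 1 and 2 the mean was -0.62 (adjusted p = 0.329 with limma). The level of CDC25C was 12.05 to 12.80 at 29.5 hpf, with a median of 12.65, and 12.79 to 13.46 at 46 hpf, with a median of 13.10. These ranges overlapped only at their ends.

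CDC25B, which starts CDK1 activation and is needed for mouse oocytes to resume meiosis, has 3 probes. The brightest (EMBV3_33687) had log2 ratios of -0.77, -0.14, -0.59 and -1.10 on 1a to 4a and of -0.15, -0.53, -0.05 and -0.76 on 1b to 4b. It was lower at 29.5 hpf on 8 of 8 arrays, by amounts that ranged widely. The mean was -0.51 ± 0.29 (SD, n = 4), a 1.43-fold lower signal with an interval of -0.81 to -0.21. The limma adjusted p was 0.118, and 0.254 with the numbers exchanged. Without replicates 1 and 2 the mean was -0.63 (adjusted p = 0.392 with limma). Its level was 10.96 to 11.76 at 29.5 hpf and 11.63 to 12.37 at 46 hpf, so the groups overlapped slightly.

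The other CDC25B probes were dim and gave smaller differences. EMBV3_33531 had a mean of -0.12 ± 0.14 (limma adjusted p = 0.541) and was above background in 5 of 8 channels at 29.5 hpf and 8 at 46 hpf. EMBV3_19360 had a mean of -0.15 ± 0.11 (limma adjusted p = 0.379) and was above background in 5 and 7 channels. The 3 probes of CDC25B shared the sign of their mean and not its size.

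CDC25A, the family member that also acts at the start of S phase, had a mean of -0.22 ± 0.28 (SD, n = 4; EMBV3_04268). Its array values ran from -0.76 to 0.24, with 6 of 8 negative. The interval was -0.52 to 0.07, and the limma adjusted p was 0.434.

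**Figure D3:**
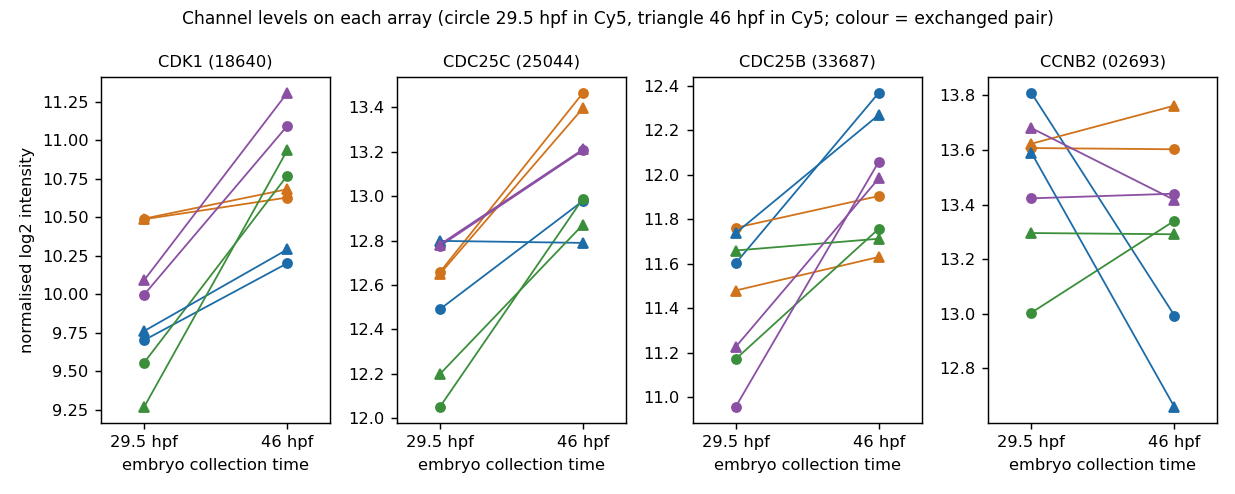
Normalised log2 intensity (vertical axis, its own range in each panel) of CDK1, CDC25C, the brightest CDC25B probe and CCNB2 in the 29.5 hpf and 46 hpf channels, with a line for each array, circles for 29.5 hpf in Cy5, triangles for 46 hpf in Cy5 and a colour for each extract pair after the exchange. The lines of CDK1 and CDC25B rise toward 46 hpf on 8 of 8 arrays although the levels of the groups overlap, and those of CCNB2 fall steeply in 1 pair, where the log2 ratio was 0.82 and 0.93.

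The inhibitory kinases gave no call in either direction. WEE2, the kinase that keeps CDK1 inactive in the oocyte, has 3 probes. EMBV3_38048 had a mean of -0.20 ± 0.30 (SD, n = 4), EMBV3_21726 of 0.16 ± 0.32 and EMBV3_35592 of -0.21 ± 0.41. Their limma adjusted p-values were 0.517, 0.635 and 0.610. The 3 WEE2 probes thus differed in the sign of their mean, although their levels were similar, with medians of 10.32, 10.40 and 9.61 at 29.5 hpf.

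All 3 WEE2 probes were positive on the arrays where CCNB2 was high. The average of 1a and 2b was 0.43, 0.63 and 0.42 for the probes in the order above, while that of 2a and 1b was -0.41, -0.15 and -0.16. In replicate 3, where CCNB2 had -0.17, the values were -0.62, 0.42 and -0.44, and in replicate 4 they were -0.23, -0.27 and -0.67. EMBV3_21726 was thus also positive in a replicate where CCNB2 was not, with its highest value of 0.79 on 3b.

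PKMYT1, the membrane-bound kinase that also phosphorylates CDK1, had the only positive mean with an unadjusted p under 0.05 (EMBV3_11026). Its log2 ratio was 0.08, 0.11, 0.02 and 0.22 on 1a to 4a and 0.58, 0.03 and 0.24 on 1b to 3b, with the spot on 4b left out by the image software. It was higher on 7 of 7 arrays, in most by little. The mean was 0.19 ± 0.11 (SD, n = 4, with replicate 4 resting on 1 array) and the interval 0.01 to 0.36. The limma adjusted p was 0.274, and 0.408 with the numbers exchanged.

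The single WEE1 probe (EMBV3_41500) was not well above background on any array in either group, so it was not tested and no fold is given. Its normalised log2 intensity was 7.20 to 7.36 at 29.5 hpf and 7.17 to 7.36 at 46 hpf.

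Over the set, 0 of the 14 tested member probes passed the adjusted limma threshold in either direction, against 0.624% of all tested probes higher and 0.53% lower. With the numbers exchanged 0 passed as well, where 0.0121% of all tested probes were called higher and 0% lower. At an unadjusted p under 0.05, 3 were lower (CDK1, CDC25C and the brightest CDC25B probe) and 1 was higher (PKMYT1), against 8.83% and 7.55% of all tested probes. With the numbers exchanged, 3 were lower and 0 higher at that level, where 6.54% and 5.87% of all tested probes were. The members lower on every array numbered 2, where 3.71% of all tested probes were, and the members higher on every array numbered 1, where 3.45% were. Means were below 0 for 8 member probes and above 0 for 6, while 51.7% of all tested probes were below 0. The median log2 ratio of the 9 genes, each by its brightest tested probe, was -0.20, beside -0.0049 over the 12629 genes with a tested probe. That median was the value of the WEE2 probe EMBV3_38048. The similarly bright WEE2 probe EMBV3_21726 had 0.16, and in its place the middle gene would be CCNB1, with 0.07. The sign of the member median thus rested on the choice of WEE2 probe. Without replicate 3 the member median was -0.067.

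Whether the differences of CDK1, CDC25C and CDC25B passed the threshold depended on how the arrays were combined. With the 8 arrays fitted singly, limma gave them adjusted p of 0.0201, 0.00941 and 0.0311, and with the labelled number as a random block 0.0265, 0.0174 and 0.0483. With the exchanged number as a random block, which was chosen after the data were seen, CDK1 had 0.0335 and CDC25C 0.0268, while CDC25B missed the threshold at 0.0710. Such a block uses 1 correlation for all probes, 0.376 for the exchanged numbers, and arrays of 1 pair that share extracts are not independent when fitted singly.

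**Figure D4:**
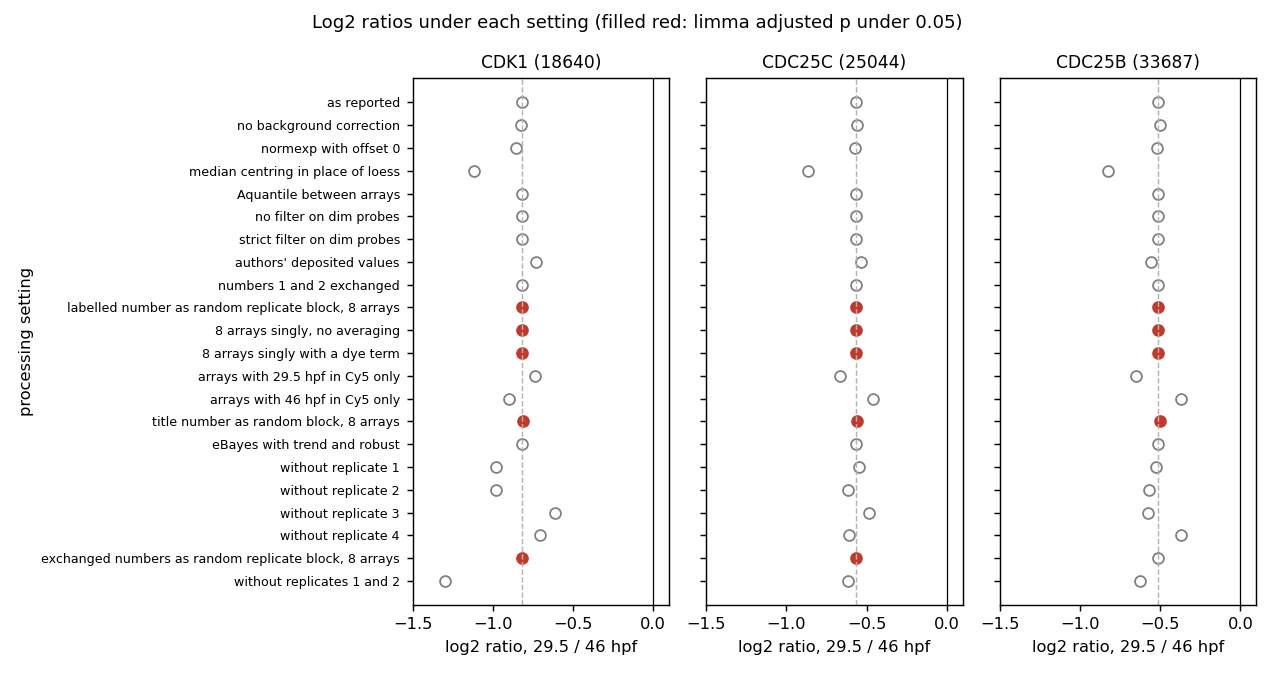
Mean log2 ratio of 29.5 hpf over 46 hpf (horizontal axis) for CDK1, CDC25C and the brightest CDC25B probe under each processing setting (vertical axis), with filled points where the limma adjusted p was under 0.05 and a dashed line at the reported value. All points lie below 0, and the filled ones belong to fits of the 8 arrays without averaging.

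The number that opens each sample title, whose meaning is not stated, is 140 for arrays 1a, 2a and 1b, 141 for 3a and 4a, and 142 for 2b, 3b and 4b. The mean of CDK1 was -0.28 within 140, -1.16 within 141 and -1.14 within 142, and the last pair hold 1 dye orientation each. CDC25C had -0.68, -0.68 and -0.36, and the brightest CDC25B probe -0.35, -0.84 and -0.45. The 3 genes were negative within each title number. With the title number as a random block, limma gave adjusted p of 0.0143, 0.00545 and 0.0192. The correlation within this block was -0.074. That fit took arrays of different title numbers as independent, although 3a and 3b, and 4a and 4b, should share extracts. These p-values can thus be too small, and they do not show that the differences hold apart from the title number. The part of the title number in the size of the CDK1 difference was not tested.

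Signs of the small positive means depended on the normalization. With median centring in place of loess, the mean turned to -0.17 for the bright CCNA2 probe, -0.21 for CCNB1, -0.10 for CCNB2, -0.15 for the WEE2 probe EMBV3_21726 and -0.014 for PKMYT1. CDK1, CDC25C and the brightest CDC25B probe were -1.12, -0.86 and -0.83 in that setting. The authors' deposited table gave CDK1 a negative log2 ratio on 6 of 8 arrays, with 0.08 on 2a and 0.13 on 1b.

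Around the switch, 63 genes were listed in 8 groups by role, of which 58 are on the array and 57 were tested. With limma's adjusted p, 0 were higher at 29.5 hpf and 1 was lower, where 0.895% of all genes were called higher and 0.578% lower. At an unadjusted p under 0.05, 3 were higher and 13 lower, against 9.18% and 10.1% of all genes. The median log2 ratio was -0.11, and 35 of the 57 genes were below 0.

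The gene called lower at 29.5 hpf was YWHAZ, a 14-3-3 protein of the family that binds phosphorylated CDC25 and keeps it from its target. Its replicate means were close together, at -0.63 ± 0.03 (SD, n = 4), and it was lower on 8 of 8 arrays (limma adjusted p = 0.0335). With the numbers exchanged the limma adjusted p was 0.0811, so this call depended on the pairing. YWHAE, another 14-3-3 protein, had a mean of -0.41 ± 0.39 (limma adjusted p = 0.281). Its SD was 0.64 with the numbers exchanged (limma adjusted p = 0.610). Of the 8 genes that restrain entry after damage, 7 did not pass the test.

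No other group held a gene past the threshold, and the 2 members of each with the smallest p, by the brightest tested probe, follow. Among 8 partners and activators of CDK1, the germ-line cyclin CCNA1 had 0.31 ± 0.14 and CCNH, a subunit of the CDK-activating kinase, -0.38 ± 0.30. Of 9 genes of the Greatwall and PP2A-B55 branch, ARPP19 had -0.36 ± 0.20 and the scaffold PPP2R1A 0.14 ± 0.06. PP2A-B55 removes phosphates that CDK1 places, and Greatwall protects them by restraining PP2A-B55. ARPP19 is a small inhibitor of PP2A-B55. Among 4 entry kinases and their cofactors, the centriole kinase PLK4 had -0.63 ± 0.61 and TPX2, an activator of Aurora A, 0.09 ± 0.17. These 6 values had limma adjusted p between 0.128 and 0.694. With the numbers exchanged, the SDs in the same order were 0.23, 0.50, 0.21, 0.33, 0.60 and 0.17. The limma adjusted p was then between 0.249 and 0.766.

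Of 8 genes for the destruction of cyclins or its inhibition, 1 was higher and 3 were lower at an unadjusted p under 0.05. Of all genes, 9.18% and 10.1% were. CDC20, which activates the anaphase-promoting complex, had 0.39 ± 0.20, and UBE2C, its ubiquitin-conjugating enzyme, -0.85 ± 0.59 (limma adjusted p = 0.118 and 0.147). UBE2C thus had a mean close to that of CDK1. Of 6 genes of oocyte arrest, the kinases MAPK3 and MAP2K1 had -0.33 ± 0.15 and 0.42 ± 0.31 (limma adjusted p = 0.125 and 0.187). Of 9 genes that control the transcription of G2 and M genes, LIN52, a part of the MuvB complex, had -0.67 ± 0.33. NFYC, a subunit of the CCAAT-binding factor, had -0.41 ± 0.18 (limma adjusted p = 0.0896 and 0.0967). Of 5 phosphatases that act as cells leave mitosis, PPP1CB had 0.18 ± 0.25 and CDC14B -0.33 ± 0.58 (limma adjusted p = 0.524 and 0.563).

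Other tested probes of these genes had means of -0.03 for CCNA1, 0.04 for ARPP19, -0.03 for PPP2R1A, -0.09 for TPX2, -0.04 for MAPK3, -0.05 for LIN52 and -0.06 for NFYC, and of -0.26 and -0.16 for YWHAE. For CCNA1, ARPP19, PPP2R1A and TPX2 the probes of 1 gene thus disagreed in sign, while YWHAZ had a single tested probe. PPP2R2A of the Greatwall and PP2A-B55 group was not named by its brightest probe, at -0.02. Its dimmer probe had a mean of -0.41 (limma adjusted p = 0.107).

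**Figure D5:**
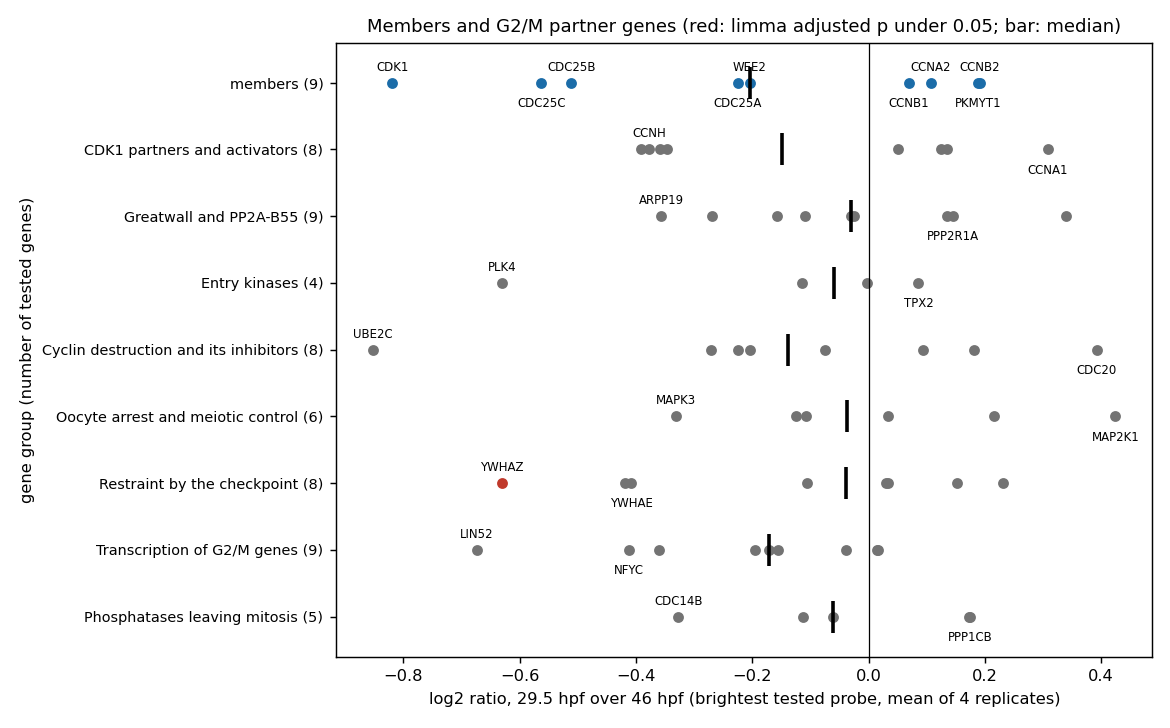
Log2 ratio of 29.5 hpf over 46 hpf (horizontal axis) of each tested gene of the 8 partner groups, by its brightest tested probe, with the 9 tested members on top in blue and a black bar at each median. YWHAZ, in red, is the 1 gene past the threshold, and the medians of the partner groups lie between -0.17 and -0.03.

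Marker lists of several cell types were read beside the label of a 2-cell embryo. The oocyte and early embryo list covers more than 1 stage, so it cannot tell a 2-cell embryo from an oocyte. All 15 tested oocyte and early embryo markers, WEE2 among them, were above background on every array in both groups, and BTG4, DPPA3 and ZP2 were the brightest. The summed intensity of this list was 148332 to 178470 at 29.5 hpf and 142267 to 185435 at 46 hpf. At the adjusted threshold 0 of the 15 passed, where 0.895% of all genes were called higher and 0.578% lower. At an unadjusted limma p under 0.05, where 10.1% of all genes were lower and 9.18% higher, 2 markers were lower at 29.5 hpf and 0 higher. These were PADI6 with -0.52 ± 0.30 and BMP15 with -0.51 ± 0.42 (limma adjusted p = 0.121 and 0.217), named after their values were seen. Their means were close to those of CDC25C and CDC25B, and their part in the member ratios was not tested. Of 22 cumulus and granulosa cell markers on the array, 16 were tested, and their summed intensity was 34153 to 42299 at 29.5 hpf and 33242 to 36537 at 46 hpf. Of these, SERPINE2, a secreted protease inhibitor, was lower at 29.5 hpf, with a log2 ratio of -1.28 ± 0.10 (SD, n = 4; limma adjusted p = 0.0227, and 0.0640 with the numbers exchanged). STAR, the carrier of cholesterol into mitochondria, had 0.67 ± 0.38 and HAS2, which makes hyaluronan, -0.29 ± 0.20 (limma adjusted p = 0.112 and 0.219). The other tested STAR probes had means of 0.16 and -0.02 (limma adjusted p = 0.536 and 0.940), so the STAR probes disagreed in size and sign. STAR, HAS2 and SERPINE2 were above background on every array, with mean log2 intensities of 14.25, 12.59 and 12.42. The other tested markers of this list were much dimmer, from 7.38 for KRT18 to 9.28 for INHBA, with FSHR at 8.41 and CYP19A1 at 8.02. TNFAIP6, AREG, HSD3B1, AMH, FOXL2 and LHCGR were not tested. The summed intensity thus rested mostly on the 3 brightest genes. The part of cumulus transcripts in the member ratios was not tested.

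Of 11 sperm markers 5 were tested and 4 of these were above background on every array, with LDHC, ODF2 and SPATA18 the brightest. The mean log2 intensity of LDHC was 10.12, and PRM1, TNP1, TNP2, ODF1, AKAP4 and PGK2 were not above background often enough. Their summed intensity was 1640 to 2464 at 29.5 hpf and 1648 to 2877 at 46 hpf. Of 5 blood and immune markers 3 were tested (HBA, CD68 and PTPRC), with sums of 654 to 817 and 669 to 881. Of 6 fibroblast and stroma markers 4 were tested, with COL1A2, COL1A1 and THY1 the brightest and sums of 930 to 1035 and 818 to 997. Of these lists 0 genes passed the threshold. At an unadjusted p under 0.05, THY1 was lower, with a mean of -0.31 ± 0.28 (limma adjusted p = 0.280).

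The genes whose array pattern was most like that of CDK1 were sought over 11797 genes by Pearson's correlation of the log2 ratios over the 8 arrays, which share extracts within pairs. The highest were AEBP2, a Polycomb cofactor, with 0.988, PSAP, the precursor of the saposins, with 0.979, and SUGP1, a splicing-related protein, with 0.967. Without the 2 arrays farthest from the CDK1 median these were 0.977, 0.958 and 0.933. In all, 47 genes exceeded 0.9, as a description with no test. These genes shared the order of the arrays with CDK1 and not its level, since their means were -0.02, -0.13 and -0.03. AEBP2, for example, ran from 0.72 on 2a to -0.90 on 3b, where CDK1 ran from -0.14 to -1.67.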

How the data were processed

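Scanner files gave linear intensity per spot, the mean signal and median local background at each wavelength, not normalized, per the file headers. The authors also deposited a table of log2 ratios, with a normalization not given in the sources used here. Against the scanner values its columns ran as 29.5 hpf over 46 hpf, with slopes of 1.02 to 1.06 and medians of -0.0151 to 0.0120, and it was used only as an alternative. Per the labels' protocols, RNA was amplified and dyes were attached chemically.

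Background was corrected by normexp (offset 50) and ratios by loess within arrays (limma 3.58.1, R 4.3.3), giving weight 0 to controls and to spots ignored in image analysis (28 to 186 on an array). Signs were turned where 46 hpf was in Cy5, and dye-swapped arrays of 1 labelled number were averaged. A probe was tested if it exceeded the mean plus 2 SD of 153 negative control spots on at least 4 of 8 arrays in the channels of 1 group, with a value in at least 3 replicates. A two-sided lmFit and eBayes test compared each mean with 0, and p-values were adjusted by Benjamini-Hochberg over all 32989 probes (threshold 0.05). The pipeline was tested on simulated data.

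Probes were named from the platform annotation, with symbols updated through RefSeq (ARS-UCD2.0): 20016 were current, 1524 renamed, 241 kept and 22013 had none listed. The brightest tested probe stood for a gene. The members, gene lists and naming rule were chosen with earlier results of these data known. Named were all members with every probe, partner genes past the threshold and the 2 with the smallest p per group, the 3 brightest markers per list and those past the threshold, and the 3 genes most like CDK1.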

Additional observations from a re-analysis of the deposited data

Results flagged for a closer look

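For each tested probe of the switch, its replicate values and its arrays of each dye orientation were looked at as groups of 4, 41 groups in all. A value stood apart when its gap to the nearest other value, as a share of the group's range, passed Dixon's 95% critical value for 4 samples, which chance passes in about 1 in 20 groups. The dim CCNA2 probe EMBV3_38925 had 1 low array with 29.5 hpf in Cy5, at -0.32 against -0.08 to -0.03 on the other 3 (gap share 0.8295). The dim CDC25B probe EMBV3_33531 had 1 low array of the same orientation, at -0.36 against -0.13 to -0.11 (0.928). The WEE2 probe EMBV3_38048 had 1 high array with 46 hpf in Cy5, at 0.57 against -0.55 to -0.41 (0.879).

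The CCNA2 probe EMBV3_38925 also took opposite signs with the dyes: it was negative on the 4 arrays with 29.5 hpf in Cy5, with a mean of -0.12, and positive on the 4 with 46 hpf in Cy5, with a mean of 0.26, a difference of -0.39. The dye term of the limma fit had an adjusted p of 0.708 for this probe.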

How the results depend on the processing

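Over the 21 other settings, CDK1, CDC25C and the brightest CDC25B probe kept a negative mean in each. Means that changed sign did so with median centring in place of loess (-0.17 for the CCNA2 probe EMBV3_32164, -0.21 for CCNB1, -0.10 for CCNB2, -0.15 for the WEE2 probe EMBV3_21726 and -0.014 for PKMYT1), in the authors' deposited table (-0.14 for the CCNA2 probe EMBV3_38925), on the arrays with 29.5 hpf in Cy5 alone (-0.12 for that CCNA2 probe and -0.072 for WEE2 EMBV3_21726), on those with 46 hpf in Cy5 alone (-0.032 for CCNB1) and without replicates 1 and 2 (-0.022 for CCNB2). Median centring also moved the median over members to -0.48, over the partner list to -0.30 and over oocyte markers to -0.34, while the median of all tested probes moved from -0.0052 to -0.066. The cause of these changes was not tested.

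Counts depended on how the arrays were averaged or blocked. Each array's deviations from the probe means were correlated with those of its labelled partner. This gave -0.28 for the arrays numbered 1, -0.19 for 2, 0.29 for 3 and 0.50 for 4. The labelled numbers 1 and 2 thus did not pair their arrays, whose deviations correlated at 0.58 and 0.32 after the exchange. Over the whole array, 206 probes were higher and 175 lower with labelled averages, and 4 and 0 with the exchanged ones. With the labelled number as a random replicate block (correlation 0.134) these were 820 and 821, with the exchanged number as a random replicate block (0.376) 556 and 519, with the title number as a block (-0.074) 1399 and 1497, with arrays singly 1086 and 1104, and with a dye term 937 and 943. In the same order, lower member probes numbered 0, 0, 3, 2, 3, 3 and 3, higher partner genes 0, 0, 1, 0, 3, 1 and 1, lower partner genes 1, 0, 4, 3, 6, 6 and 5, higher marker genes 0, 0, 1, 1, 1, 1 and 1, and lower marker genes 1, 0, 1, 1, 1, 1 and 1. With the dye term CDK1, CDC25C and CDC25B had limma adjusted p of 0.0349, 0.0149 and 0.0396.

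Counts of higher and lower probes were 345 and 271 with no background correction, 118 and 80 with an offset of 0, 38 and 13 in the authors' table, and 28 and 11 with a trended robust prior, and the last pair of settings left 0 partner genes lower. Median centring gave 0 calls in either direction (6517 probes at an unadjusted p under 0.05 with limma), as did each dye orientation alone (3564 and 4815), each left-out replicate (0 to 0 calls, 4027 to 5245) and the omission of replicates 1 and 2 (4085), with 0 partner and 0 marker genes in each. Fewer replicates were fitted in the last ones. With 1 replicate left out, the mean of CDK1 was -0.98 to -0.61, of CDC25C -0.62 to -0.48 and of CDC25B -0.58 to -0.37, the median over members -0.26 to -0.067, with -0.067 without replicate 3, and the partner median -0.12 to -0.04, with -0.04 without replicate 4, as also on the arrays with 29.5 hpf in Cy5 alone (-0.038).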
